A study of Mus musculus with 4 samples.

Results

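The 10 genes described here make the core of antigen presentation by MHC class II in the mouse: the classical chains H2-Aa, H2-Ab1 and H2-Eb1, the invariant chain Cd74, the peptide editor chains H2-DMa and H2-DMb1, the transactivator Ciita and the 3 subunits of the RFX complex, Rfx5, Rfxap and Rfxank. They were taken by symbol from a count table of 17194 genes, and all 10 were listed and passed the filter on low counts. The list was chosen by symbol and role after the fold changes between siHells and siControl of H2-Eb1, H2-Aa and Ciita, among the largest falls of the study, had been seen. The differences between the groups are therefore given for the members as a description, without p-values. Polyadenylated RNA came from mouse bone marrow-derived macrophages, a primary culture, kept with RANKL, the cytokine that turns such cells into osteoclasts, for 2 days. Both groups had RANKL. The 2 siControl libraries carry a control siRNA label and the 2 siHells libraries an siRNA label against Hells, a SNF2-family chromatin remodeller that supports DNA methylation. The sources used here give no mouse strain, age or sex, no siRNA sequence and no number of animals or cultures, so the spread between libraries of a group may be technical.

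MHC class II molecules are pairs of an alpha and a beta chain that show peptides from engulfed proteins to CD4 T cells. In the endoplasmic reticulum the pair assembles around the invariant chain, which is later cut down to a short piece in the groove, and DM exchanges that piece for peptide. Transcription of these genes depends on a complex of RFX, CREB and NF-Y proteins that sits on neighbouring promoter elements named the X and Y boxes and that recruits CIITA, which binds no DNA itself. The RFX subunits are made in most cells, whereas CIITA is limited to antigen-presenting cells and to cells exposed to interferon gamma.

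The promoters are shown first because X and Y boxes are the elements through which CIITA acts on these genes. RefSeq promoter windows, from 250 bases before to 50 bases after the start site, were matched for 6 of the 10 members in GRCm38.p6. The lines below give the 110 bases before the start site of H2-Aa (chr17:34287824-34287933, minus strand) and of H2-Eb1 (chr17:34305757-34305866, plus strand), and 30 bases from position -97 of H2-DMb1 (chr17:34153094-34153123, plus strand), kept short because GENCODE M21 places that stretch in the first exon. Capitals mark CTNGNAAC, the start of an X box, and ATTGG, the core of a Y box, which is written CCAAT where it lies on the opposite strand.
H2-Aa: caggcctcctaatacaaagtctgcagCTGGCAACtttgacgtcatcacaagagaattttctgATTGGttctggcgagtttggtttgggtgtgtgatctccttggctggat
H2-Eb1: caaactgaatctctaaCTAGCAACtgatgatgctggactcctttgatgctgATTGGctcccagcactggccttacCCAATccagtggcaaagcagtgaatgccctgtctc
H2-DMb1: CTAGTAACtgatgatgctaggctgattcac

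In each of these 3 promoters CTNGNAAC was followed on the same strand by ATTGG, with 28 bases between them in H2-Aa and H2-DMb1 and 27 in H2-Eb1. The spacing search allowed 10 to 45 bases and both strands, and the letters CTNGNAAC were chosen after the sequences had been seen. The pair was present in 0.429% of 32851 mouse promoter windows of the same length. CTNGNAAC alone was in 13.2% of windows and ATTGG alone in 37.4%. Another string for the X box, ACAGATG, which was in 5.01% of all windows, was followed by ATTGG in 0.110% of windows and in none of the 7 member windows. Neither of the 2 H2-DMa windows held the pair, nor did that of Rfxank, which held ATTGG without CTNGNAAC. The Rfx5 window held CTNGNAAC at -100 on the minus strand, followed on that strand by ATTGG at -113 with fewer bases between them than the 10 required, so CTNGNAAC was in 4 of the 7 member windows and the pair in 3. The string TTCNNNGAA, the form of an interferon gamma activated site, was in 8.30% of all windows and in 0 of the 7. A match of letters is a description and not evidence that a factor binds there.

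The libraries held 48873635 to 55642819 counts, and the filter left 15651 genes, of which 4541 were higher and 4612 lower in siHells at a Benjamini-Hochberg adjusted p of 0.05 in the quasi-likelihood test of edgeR. Hells, the target of the siRNA, fell 1.99-fold (1613 and 1501 reads under siControl against 823 and 785 under siHells, log2 fold change -0.99, SE 0.068, edgeR adjusted p = 5.96e-09). All 10 macrophage markers were listed, with a summed level of 16045 to 16159 CPM (counts scaled to library size) in siControl and 23685 to 24377 CPM in siHells, and 8 rose and 2 fell. All 10 osteoclast markers were listed and fell, from a summed 8662 to 8726 CPM to 1397 to 1436 CPM. Macrophage markers were thus high in every library, with most of their sum from Lyz2 (mean 11347 CPM in siControl and 17284 CPM in siHells). Stromal markers were present in every library too, as given below.

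The classical chains had few reads left in siHells, with log2 fold changes from -4.76 to -3.47. H2-Eb1, the beta chain of I-E, had 2213 and 1993 reads under siControl against 87 and 72 under siHells, or 40.04 ± 0.307 against 1.47 ± 0.186 CPM (SD, n = 2 each). The difference was 27.1-fold, a log2 fold change of -4.76 (SE 0.11), the largest among the 10 genes. H2-Aa, the alpha chain of I-A, had 3081 and 3000 reads under siControl against 152 and 169 under siHells. Its level was 58.0 ± 2.76 CPM against 2.98 ± 0.245 CPM, 19.5-fold lower (log2 fold change -4.28, SE 0.088). Both siHells libraries were far below both siControl libraries for H2-Eb1 and H2-Aa.

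H2-Ab1, the beta chain that pairs with H2-Aa, was the least even of the chains in siHells. It had 2481 and 2300 reads under siControl against 273 and 171 under siHells, or 45.5 ± 0.583 against 4.11 ± 1.31 CPM. It was 11.1-fold lower (log2 fold change -3.47, SE 0.12), and leaving out siHells replicate 1 gave a log2 fold change of -3.83, leaving out siHells replicate 2 one of -3.17. DESeq2, a second tool, gave the same log2 fold change of -3.47 with a larger SE of 0.31. The groups did not overlap. H2-Aa, H2-Ab1 and H2-Eb1 lie side by side on chromosome 17 of GRCm38, at chr17:34282744-34287823 on the minus strand, chr17:34263227-34269418 on the plus strand and chr17:34305867-34316674 on the plus strand. Class II chains differ in sequence between mouse strains, the strain is not given in the sources used here, and its part in the counts was not tested.

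Cd74, the invariant chain that guides class II through the cell, had the highest mean level per kb of exon among the members in both groups. In CPM, which is not scaled by length, Cd74 was below H2-DMa in siHells and overlapped Rfx5. It had 14176 and 13334 reads under siControl against 1272 and 1341 under siHells, or 262 ± 6.05 against 24.2 ± 1.08 CPM. The difference was 10.8-fold (log2 fold change -3.44, SE 0.045), with no overlap between groups. Cd74 is on chromosome 18 at 60803849 to 60812652, away from the class II cluster, and its difference was of the same order as that of H2-Ab1. The 3 chains and Cd74 together held 0.0410% and 0.0422% of all counts in the siControl libraries and 0.0032% in each siHells library. In bulk RNA, fewer cells with class II transcripts and less class II RNA per cell cannot be told apart.

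**Figure D1:**
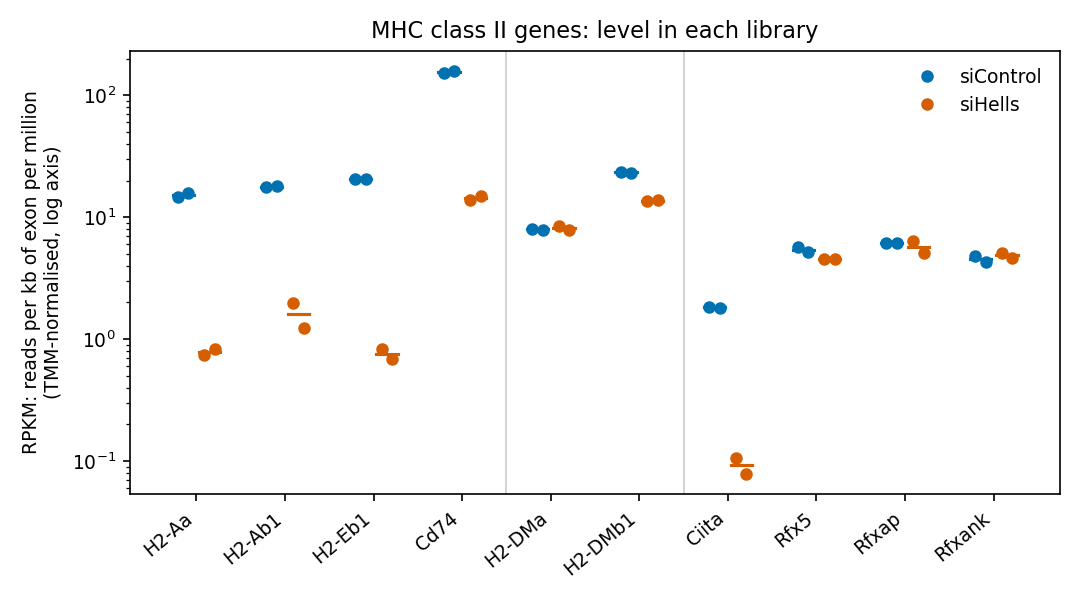
Level of each of the 10 genes in each library, as TMM-normalised RPKM (reads per kb of exon, scaled to library size) on a log axis; points are the 4 libraries and short lines the group means, with chains and Cd74 on the left, DM in the middle and regulators on the right. The siHells points of H2-Aa, H2-Ab1, H2-Eb1, Cd74 and Ciita lie about a decade or more below siControl, while those of H2-DMa, Rfxap and Rfxank overlap siControl.

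The DM chains differed far less than the classical chains, with log2 fold changes of 0.04 and -0.77. H2-DMa, the alpha chain of the peptide editor, had 1526 and 1359 reads under siControl against 1588 and 1462 under siHells. Its level was 27.5 ± 0.428 CPM against 28.3 ± 1.45 CPM, with a log2 fold change of 0.04 (SE 0.063) and overlapping groups; the sign turned under scaling by library totals (-0.03) and without siHells replicate 1 (-0.01). H2-DMb1, the beta chain of the same pair, had 2182 and 1943 reads under siControl against 1236 and 1249 under siHells, 39.3 ± 0.615 against 23.04 ± 0.338 CPM. It was 1.70-fold lower (log2 fold change -0.77, SE 0.059), and its groups did not overlap. H2-DMb1 carries the X letters printed above and, at -61 and beyond the printed bases, ATTGG at the same spacing as H2-Aa. The log2 differences of H2-DMb1 and H2-Aa were -0.77 and -4.28, and whether the letters bear on either was not tested. H2-DMa is overlapped on the opposite strand by Brd2, and H2-DMb1 has the close copy H2-DMb2, so the split of reads between these genes is uncertain.

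Ciita, the transactivator on which class II transcription depends, was lower by about as much as the chains. It had 965 and 860 reads under siControl against 55 and 40 under siHells, or 17.4 ± 0.262 against 0.880 ± 0.190 CPM. The difference was 19.7-fold (log2 fold change -4.30, SE 0.15), close to the 19.5-fold of H2-Aa. Ciita lies on chromosome 16 at 10480014 to 10531064, plus strand, and its end is overlapped on the opposite strand by Dexi. Dexi, given here because of this overlap, had 396 and 381 reads under siControl against 394 and 338 under siHells (log2 fold change -0.13, edgeR adjusted p = 0.376).

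The RFX subunits differed little between the groups, with log2 fold changes from -0.26 to 0.09. Rfx5, the subunit that contacts the X box, had 1710 and 1428 reads under siControl against 1363 and 1332 under siHells, 29.8 ± 1.82 against 24.98 ± 0.225 CPM (log2 fold change -0.26, SE 0.065), with groups that did not overlap. Rfxap, the RFX-associated protein, had 751 and 689 reads under siControl against 774 and 610 under siHells. Its log2 fold change was -0.10 (SE 0.10), with overlapping groups and siHells libraries of 14.3 and 11.4 CPM on either side of siControl; leaving out siHells replicate 1 gave -0.27 and leaving out siHells replicate 2 gave 0.06. Rfxank, the ankyrin-repeat subunit, had 1045 and 859 reads under siControl against 1103 and 983 under siHells, a log2 fold change of 0.09 (SE 0.081) with overlapping groups. Antisense or opposite-strand genes overlap Rfx5 (B230398E01Rik) and Rfxank (Nr2c2ap), and the strand setting of the counting is not given.

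**Figure D2:**
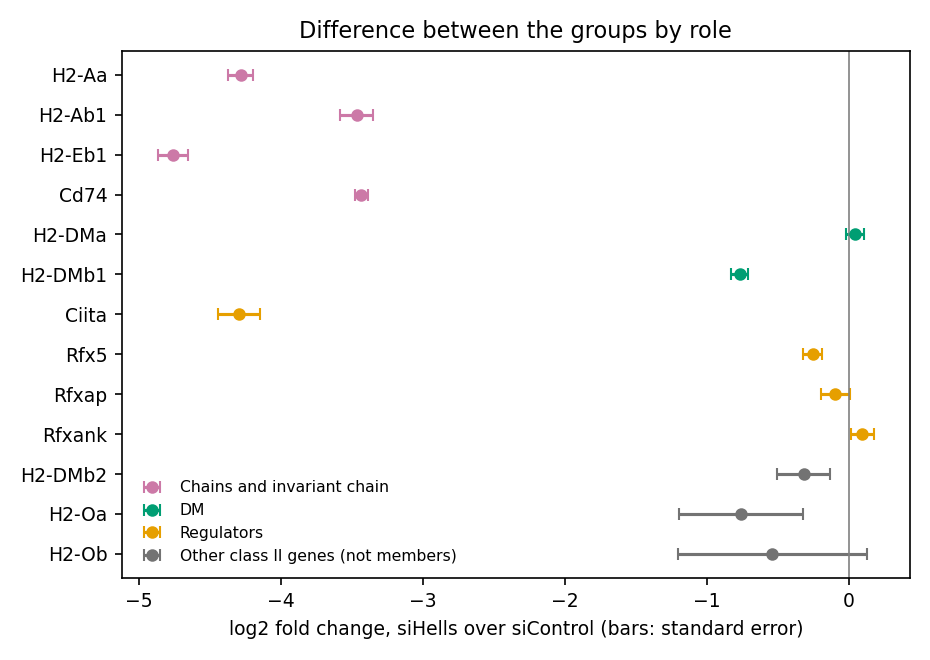
Log2 fold change, siHells over siControl, for the 10 members by role and for 3 other class II genes. Bars are standard errors derived from the F statistic of the edgeR fit. The chains, Cd74 and Ciita lie between -4.76 and -3.44, H2-DMb1 at -0.77 and H2-DMa and the RFX subunits between -0.26 and 0.09.

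Of the 10 members, 7 were called lower and 0 higher by the edgeR test, where 29.5% of all genes tested were called lower and 29% higher, 58.5% in either direction. The members called were the chains, Cd74, Ciita, H2-DMb1 and Rfx5, and the call of Rfx5 was lost without siControl replicate 1, which left 6. Without siHells replicate 1, Rfxap was called as well, which made 8. At an unadjusted p under 0.05, edgeR, DESeq2 and limma voom each also had 0 members higher and 7 lower. The groups did not overlap for 7 members, all of them lower in siHells, beside 78.5% of all genes in either direction and 39.4% lower. Their median log2 fold change was -2.10, beside 0.00 for all genes. At least 8-fold lower were 5 of the 10, beside 0.409% of all genes. Since the members were chosen with this contrast known, these shares and calls describe them and test nothing. The tools used the same 4 libraries, so their equal counts add no support.

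Levels of different genes were compared as RPKM, per kb of exon. In siControl the order of the mean level was Cd74 at 156 RPKM, H2-DMb1 at 23.4, H2-Eb1 at 20.6, H2-Ab1 at 17.7, H2-Aa at 15.3, H2-DMa at 7.96, Rfxap at 6.12, Rfx5 at 5.43, Rfxank at 4.56 and Ciita at 1.82. The library values of no neighbouring pair in that order overlapped. In siHells the classical chains dropped below H2-DMa and the RFX subunits, while they were below H2-DMb1 in both groups. H2-DMb1 was at 13.7, H2-DMa at 8.20, H2-Ab1 at 1.60, H2-Aa at 0.784, H2-Eb1 at 0.758 and Ciita at 0.0923 RPKM. Cd74 at 14.4 stood just above H2-DMb1. H2-Aa and H2-Eb1 overlapped in siHells, as did Rfxap and Rfxank. With the longest transcript as the length in place of all exons, H2-Ab1 moved up to the second place in siControl, at 37.6 RPKM.

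Ratios within a library do not depend on how libraries are scaled. H2-Eb1 stood to H2-Ab1 as 1.18 and 1.14 in siControl and as 0.421 and 0.556 in siHells. The ratio of H2-Aa to H2-Ab1 was 0.840 and 0.882 in siControl and 0.376 and 0.668 in siHells. Both ratios were lower in each siHells library, with a wide gap between the siHells libraries that follows their unequal H2-Ab1 counts. The ratio of Cd74 to H2-Ab1 was 8.74 and 8.87 in siControl and 7.13 and 11.99 in siHells, so the siHells values lay on both sides. Within DM, H2-DMa stood to H2-DMb1 as 0.341 in each siControl library and as 0.626 and 0.571 in siHells. Of the summed length-scaled level of the 10 genes, Cd74 made up a mean of 60.3% in siControl and 26.4% in siHells, and the DM beta chain H2-DMb1 made up 9.02% and 25.1%.

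Over the 4 libraries, the genes with the profile most like that of Ciita outside the members were Spint2, Siglec15, Itgax, Scin and Mmp12. The measure was the root mean square difference of log2 CPM after each gene was centred on its mean, among genes whose mean log2 CPM reached 1. It was 0.107 for Spint2, 0.165 for Siglec15, 0.185 for Itgax, 0.280 for Scin and 0.312 for Mmp12. Among members it was 0.214 for H2-Aa, 0.245 for H2-Eb1, 0.392 for H2-Ab1, 0.453 for Cd74 and 1.75 or more for the other 5. Itgax, the CD11c integrin used to mark dendritic cells, had 745 and 716 reads under siControl against 60 and 34 under siHells. Of the 10 listed dendritic cell markers, however, 5 rose and only 2 fell, Itgax among them. With 2 groups of 2, a like profile means little more than a like fold change.

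Genes next to the members on their chromosomes had smaller differences than the chains, Cd74 and Ciita. The members were chosen with large falls among them known, so this contrast describes them and tests nothing about the loci. The neighbours include the class II genes H2-Oa, H2-Ob and H2-DMb2, given below. Of 22 tested genes within 100 kb of a class II gene, of Ciita or of Cd74, 1 rose and 10 fell by the edgeR test, and 11 were not called. That is 45.5% lower and 4.55% higher, beside 29.5% and 29% of all genes, and 50% called in either direction, beside 58.5%, and the number that fell was 6 without siControl replicate 2. The log2 fold changes of these neighbours ran from -1.15 to 0.38. The lowest was Btnl2, a butyrophilin-like gene next to the class II cluster, at 31 and 32 reads under siControl against 15 and 14 under siHells (log2 fold change -1.15, SE 0.40, edgeR adjusted p = 0.0212). That call was lost with DESeq2 (adjusted p = 0.121) and when any single library was left out (edgeR adjusted p of 0.0515 to 0.0971). Tap2, a subunit of the class I peptide transporter encoded between the DM and the I-A genes, fell 1.66-fold (edgeR adjusted p = 3.63e-10), and Psmb8, an immunoproteasome subunit there, fell 1.38-fold. Tap1, the partner of Tap2, rose 1.30-fold (edgeR adjusted p = 1.30e-06). Beside Ciita, Nubp1, an iron-sulfur cluster assembly factor, fell 1.54-fold and 4 other genes were not called. Beside Cd74, the heparan sulfate enzyme gene Ndst1 fell 1.84-fold.

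**Figure D3:**
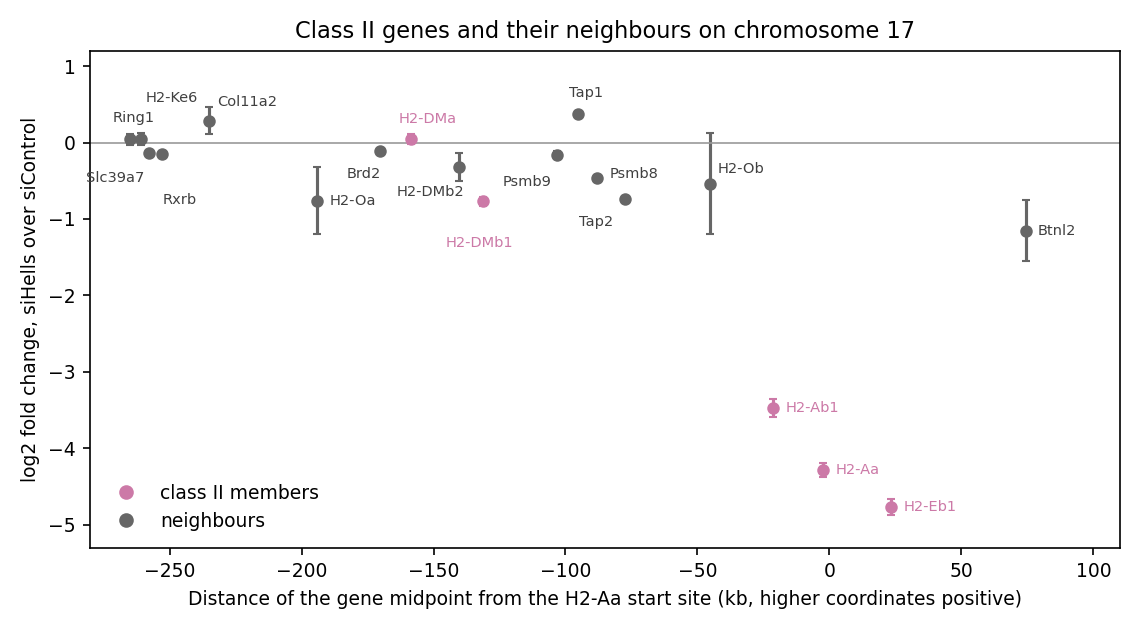
Log2 fold change, siHells over siControl, with its standard error, against the distance in kb of each gene's midpoint from the H2-Aa start site, for class II members and tested neighbours on chromosome 17. H2-Ab1, H2-Aa and H2-Eb1 lie between -4.76 and -3.47, while every neighbour, H2-Oa, H2-Ob and H2-DMb2 included, lies between -1.15 and 0.38. The members were chosen with large falls among them known, so this contrast tests nothing.

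The remaining class II genes had few reads. H2-Oa and H2-Ob, the chains of DO, which restrains DM, had 20 and 28 reads under siControl against 13 and 16 under siHells for H2-Oa, and 12 and 15 against 2 and 17 for H2-Ob. H2-DMb2, the second DM beta gene, had 204 and 140 against 154 and 129. None of these 3 passed the edgeR test, and at an unadjusted p under 0.05 edgeR, DESeq2 and limma voom each had 0. Their log2 fold changes were -0.76 for H2-Oa (SE 0.44, edgeR adjusted p = 0.151), -0.54 for H2-Ob (SE 0.66, edgeR adjusted p = 0.509) and -0.32 for H2-DMb2 (SE 0.19, edgeR adjusted p = 0.155). Without siHells replicate 2, H2-Ob had a log2 fold change of -2.72 and passed (edgeR adjusted p = 0.0265), and without siHells replicate 1 it was 0.30. H2-Ea, H2-Ea-ps and H2-Eb2 were not listed under these names among the counted genes. H2-Eb1 thus had no listed alpha chain of I-E to be set beside it. No gene with 0 reads in any library was listed.

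Genes listed for the loading and turnover of class II molecules rose more often than they fell. The list also held general genes of lysosomes and vesicle traffic, such as Ctsd, Cd63 and Ap2m1. Of 18 tested, 11 rose and 5 fell by the edgeR test, 61.1% and 27.8% beside 29% and 29.5% of all genes. In either direction 88.9% were called, beside 58.5% of all genes, and the median log2 fold change was 0.32. Lgmn, the asparagine endopeptidase that opens the invariant chain, rose 2.68-fold, to 2093 ± 66.2 CPM from 782 ± 6.03 CPM (SD, n = 2 each; edgeR adjusted p = 2.24e-15). March1, the ubiquitin ligase that removes class II from the cell surface, rose 3.84-fold, from 53.4 to 205 CPM (edgeR adjusted p = 4.46e-14). The cysteine protease Ctsb rose 1.71-fold and the aminopeptidase cathepsin Ctsh 2.20-fold. Ctss, the cathepsin that makes the last cut of the invariant chain, was named after its values were seen, and it rose by 0.64 on the log2 scale (edgeR adjusted p = 8.77e-12). Ifi30, the lysosomal thiol reductase that unfolds antigens, fell 2.32-fold, from 699 ± 13.4 to 301 ± 11.8 CPM.

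The list called partners of CIITA here held promoter cofactors, and also deacetylases, Ezh2 and Nlrc5. Its log2 fold changes ran from -0.49 to 0.89. Of 20 genes, 8 rose and 4 fell by the edgeR test (60% called, beside 58.5% of all genes), and the number that rose was 5 when scaled by library totals, with 5 lower, and 5 without siControl replicate 1. Nlrc5, the relative of CIITA that acts on class I genes, rose 1.85-fold, from 45.7 ± 1.21 to 84.5 ± 1.01 CPM (edgeR adjusted p = 1.93e-10). The acetyltransferase Ep300 rose 1.36-fold. The deacetylase Hdac2, the histone methyltransferase Ezh2 and the NF-Y subunit Nfyc fell 1.40-fold, 1.34-fold and 1.30-fold. The other NF-Y subunits, named after their values were seen, had log2 fold changes of 0.01 for Nfya (edgeR adjusted p = 0.894) and 0.07 for Nfyb (edgeR adjusted p = 0.462).

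Of 33 tested genes known to act on Ciita or on macrophage responses to cytokines, 18 rose and 9 fell by the edgeR test, 54.5% and 27.3% beside 29% and 29.5% of all genes, with a median log2 fold change of 0.21. Prdm1, which encodes BLIMP1, a repressor of Ciita in plasma cells, fell 4.25-fold, from 137 ± 1.21 to 32.4 ± 0.289 CPM (edgeR adjusted p = 5.01e-15). Tsc22d3, the glucocorticoid-induced leucine zipper, rose 12.8-fold, from 63.1 ± 1.06 to 809 ± 4.55 CPM (edgeR adjusted p = 3.63e-19). Receptors rose as well: Ifngr1, a chain of the interferon gamma receptor, 2.41-fold, Il4ra 2.96-fold and Il10ra 2.09-fold. Named after their values were seen, Irf8 rose by 0.96 and Spi1 fell by 0.38 on the log2 scale, while Irf1 had a log2 fold change of 0.06 (edgeR adjusted p = 0.239).

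Targets of interferon gamma, the main inducer of CIITA in macrophages, were split. Of 22 tested, 11 fell and 6 rose by the edgeR test, 50% and 27.3% beside 29.5% and 29% of all genes, with a median log2 fold change of -0.14. Gbp4, a guanylate-binding protein, had 268 and 262 reads under siControl against 26 and 27 under siHells and fell 10.2-fold (edgeR adjusted p = 3.39e-09). The chemokine Cxcl10 fell 4.45-fold, and Cd274, the PD-L1 ligand, fell 1.81-fold. Fcgr1, the high-affinity IgG receptor, rose 2.15-fold. Cxcl9, Cxcl11 and Nos2 were not listed under these names, so they had no values to compare.

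Class I presentation, the companion pathway for peptides made inside the cell, went both ways. Of 22 tested genes, 10 rose and 7 fell by the edgeR test, 45.5% and 31.8% beside 29% and 29.5% of all genes, with a median log2 fold change of 0.10. H2-K1 rose 1.70-fold, from 1091 ± 16.3 to 1859 ± 10.7 CPM, H2-D1 1.43-fold, the light chain B2m 1.42-fold and H2-Q4 1.94-fold. The proteasome activator gene Psme2 fell 1.84-fold. The H2-K, H2-D and H2-Q genes are near-identical copies among which reads may be split. This list shares Tap1, Tap2, Psmb8, Psmb9 and Psmb10 with the interferon gamma targets.

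Genes listed for T cell costimulation, which include receptors such as Havcr2 as well as ligands, also moved in both directions. This list shares Cd40, Cd274 and Icam1 with the interferon gamma targets, and the fall of Cd274 is given there. Of 16 tested costimulation genes, 8 rose and 5 fell by the edgeR test, 81.2% called beside 58.5% of all genes (29% higher and 29.5% lower), with a median log2 fold change of 0.32. Havcr2, the inhibitory receptor TIM-3, rose 2.76-fold and Vsir, the checkpoint ligand VISTA, 1.73-fold, while Lgals9, a galectin that binds TIM-3, rose 1.40-fold. Cd83, which protects class II and CD86 from removal by March1, fell 3.15-fold, from 594 and 547 counts to 204 and 168 (edgeR adjusted p = 1.46e-08). Named after their values were seen, Cd40 fell by 1.11 on the log2 scale, Cd80 rose by 0.63 and Cd86 had a log2 fold change of 0.03 (edgeR adjusted p = 0.694).

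**Figure D4:**
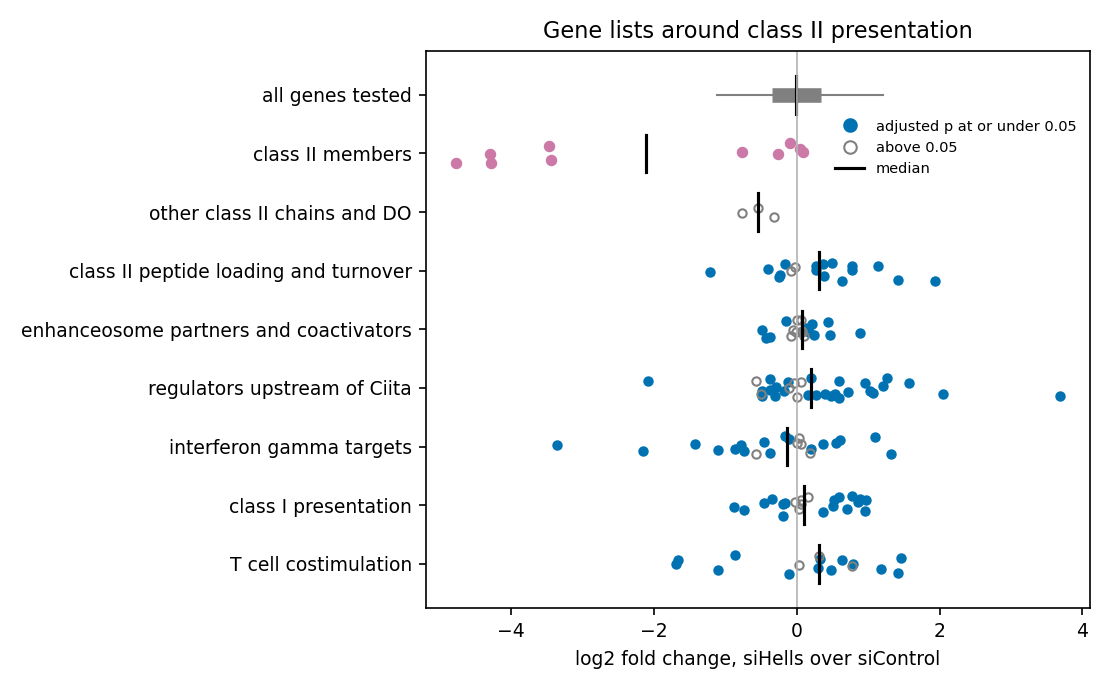
Log2 fold change, siHells over siControl, of each tested gene in 7 lists around class II presentation and of the 10 members; filled points passed the edgeR adjusted p of 0.05, open points did not, members carry no test colour and black lines are medians. For all genes the thick bar is the interquartile range and the thin bar runs from the 5th to the 95th percentile. The member median is -2.10, and the list medians lie between -0.54 and 0.32.

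Other cells, only some of which carry class II, could be present in marrow cultures. Markers of several cell types were measured in the same libraries. Of 14 dendritic cell markers, 10 were listed, with a summed level of 150.6 to 153 CPM in siControl and 409 to 419 CPM in siHells; 5 rose and 2 fell, and Ccr7, Cd209a, Xcr1 and Dpp4 were not listed. The markers given here with values were picked after these were seen. Most of that sum was Clec10a, which macrophages also express, at 5785 and 5037 reads under siControl against 20065 and 19376 under siHells. Flt3, a receptor of dendritic cell precursors, rose from 22 and 22 counts to 126 and 131, and the dendritic transcription factor Zbtb46 from 206 and 197 to 301 and 284. The 2 that fell were Itgax, from 745 and 716 counts to 60 and 34 (log2 fold change -3.99, the largest change among the 10), and Clec4a4, from 865 and 821 to 463 and 513 (log2 fold change -0.83). Of 10 B cell markers, 4 were listed, with 20.6 to 21.5 CPM in siControl and 17.6 to 18 CPM in siHells, and the defining markers Cd79a, Ms4a1 and Pax5 were not listed. Of 10 T cell markers, 3 were listed and fell, from 74.4 to 79.6 CPM to 27.7 CPM in each siHells library, most of it Cd4, and Cd3e, Cd3d and Cd3g were not listed. The summed stromal markers were 1175 to 1195 CPM in siControl and 2083 to 2132 CPM in siHells, and neutrophil markers 363 to 373 and 318 to 334 CPM. The table lists no gene with 0 reads in any library, so a marker that is not listed had no value to compare. The part of these cells in the class II values was not tested.

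The pair of X and Y letters was also looked up outside the members. Of 78 tested genes with the pair in a promoter window, 33.3% rose and 26.9% fell by the edgeR test, beside 29% and 29.5% of all genes, with a median log2 fold change of 0.06. Among genes of the lists above, H2-Ob and Calr held the pair. H2-M2, a class I-like gene picked out after its values were seen, also held it, with 299 and 254 reads under siControl against 54 and 32 under siHells (log2 fold change -2.72, SE 0.21, edgeR adjusted p = 2.80e-08), the lowest value among those 78 genes.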

How the data were processed

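RNA-seq libraries of 2 siControl and 2 siHells samples were compared. The authors deposited raw read counts per gene symbol, with no normalization; the submitters' processing notes list mm10 as the build and, among the tools, HISAT2 2.1.0, StringTie 2.1.3b, Trimmomatic 0.38, edgeR and FastQC. Per the labels' protocols 2 library kits are named, so whether reads kept their strand is open, and reads of overlapping opposite-strand genes cannot be told apart. The lowest count was 1. The siControl libraries totalled 53502523 and 48873635, the siHells libraries 55642819 and 55012697. A count of 10 stands for 0.188 CPM at this depth.

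Genes were filtered with filterByExpr (minimum count 10, minimum total 15), which left 15651, scaled by TMM, and tested with the quasi-likelihood test of edgeR 4.0.16 in R 4.3.3 (group as the only term, robust, 2 residual degrees of freedom), with Benjamini-Hochberg adjustment over all genes tested. Log2 fold changes are siHells over siControl. Their SE is the absolute log2 fold change divided by the square root of the edgeR F statistic, and is not an SE that edgeR reports. Levels are TMM-normalised CPM, and per kb of GENCODE M21 exon where genes are compared, which had a length for 15652 symbols. Coordinates and promoters are from RefSeq on GRCm38.p6, the build of mm10, and 96.8% of symbols matched.

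The members and lists were chosen with earlier results of these data known. Named were all members, Hells, up to 5 genes of smallest p per list, all tested genes of the other class II list, the 6 called neighbours of largest change and the 5 nearest profiles; others are marked, or named for an overlap or motif. DESeq2 1.42.0, limma 3.58.1, other scalings and filters, a replicate block and each library left out were the alternatives. The procedure was tested on simulated data. A planned comparison of protein sequences was not run. The chi-square per gene between the libraries of a group was 3.67 for siControl and 7.03 for siHells, above the 1 of sampling noise.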

Additional observations from a re-analysis of the deposited data

How the results depend on the processing

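Across the 13 alternatives, H2-Aa, H2-Ab1, H2-Eb1, Cd74, Ciita, H2-DMb1 and Rfx5 stayed lower in siHells. H2-Aa ranged from -4.37 to -4.20 on the log2 scale, H2-Ab1 from -3.83 to -3.17, H2-Eb1 from -4.89 to -4.64, Cd74 from -3.51 to -3.39 and Ciita from -4.54 to -4.09. With each library left out in turn, 6 to 8 members were called lower, 3796 to 4442 of all genes were called higher and 3999 to 4442 lower, 0 to 1 of the other class II genes were called lower, 5 to 8 partners of CIITA rose and 6 to 10 neighbours fell. Scaled by library totals, 5 partners of CIITA rose. With the longest transcript as the length, the ratio of H2-Aa to H2-Ab1 was 0.479 in siControl and 0.291 in siHells, that of H2-Eb1 to H2-Ab1 0.638 and 0.269, that of Cd74 to H2-Ab1 4.95 and 5.37, and that of H2-DMa to H2-DMb1 0.490 and 0.860. With the replicate number as a block, 7 members were called lower, with 4502 of all genes higher and 4586 lower. Deviations of same-numbered libraries had a correlation of 0.05 across genes. That value cannot settle whether they share a culture or animal, which the sources used here do not give. The 2 libraries per group and the 55 and 40 Ciita counts in siHells limit the precision of the largest differences.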
